A study of Mus musculus with 6 samples.

Results

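The AP-1 and BATF transcription factors were examined in hematopoietic stem cells (HSCs) as a family of 10 genes, namely *Fos*, *Fosb*, *Fosl1*, *Fosl2*, *Jun*, *Junb*, *Jund*, *Atf3*, *Batf*, and *Batf2*. They were found by symbol in the deposited table of 26264 genes, and all 10 were among the 17404 genes that passed the filter on low values, a mean of at least 10 normalized counts over the 6 libraries. HSCs had been sorted as Lin-Sca1+Kit+CD150+CD48- bone marrow cells and profiled by bulk RNA-seq, with 1 library per mouse. The comparison asks how loss of the transcription factor IRF1 alters the HSC transcriptome. The groups were 3 WT mice (C57Bl/6) and 3 *Irf1-/-* mice (B6.129S2-Irf1 tm1Mak/J), all female, untreated, and 8 weeks old. The knockout is present in every tissue, so effects within HSCs and effects of other cells that lack IRF1 cannot be told apart. Libraries are named by the replicate numbers 2, 3, and 4 in both genotypes, and values are given in that order.

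AP-1 is a dimer of basic leucine zipper proteins. FOS proteins bind DNA only together with a partner, usually a JUN protein, whereas JUN proteins can also pair with one another. *Fos*, *Jun*, and several relatives are immediate-early genes, whose transcripts appear within minutes of growth factor, cytokine, or stress signals and are short-lived. ATF3 is a stress-induced relative, and the BATF proteins pair with JUN proteins and bind composite DNA sites together with interferon regulatory factors.

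The reads on genes numbered 43138521, 57281017, and 45129929 in the *Irf1-/-* libraries. In the WT libraries they numbered 59658080, 45332573, and 43267486. The 10 genes together held between 13964 reads (WT replicate 4) and 23496 reads (WT replicate 2). Counts below are normalized counts, that is, reads divided by 1 size factor per library.

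*Irf1*, the targeted gene, was at 9267, 9524, and 9287 normalized counts in *Irf1-/-* libraries and at 10122, 11119.6, and 12058 in WT libraries. All 3 *Irf1-/-* values lay below all 3 WT values, but their mean was still 84.3% of the WT mean (log2 fold change −0.24, SE 0.088, adjusted *P* = 0.170, limma). This value sums reads over the whole gene, which includes parts outside the targeted segment, so it did not check the genotypes, which are used as labeled.

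Of 10 fixed HSC markers all were counted in every library. They ranged from *Hoxb5* (between 452 and 644) to *Kit*, the most abundant (between 77902 and 88715). *Cd48*, which the sort selects against, was between 257 and 431. *Fgd5* was the only HSC marker called, and was higher in *Irf1-/-* HSCs (log2 fold change 0.83, SE 0.087). *Procr*, which was higher (0.52, adjusted *P* = 0.0112, limma), and *Ly6a*, the gene of the sort marker Sca1, which was lower (−0.43, adjusted *P* = 0.0245, limma), passed the adjusted *P* but not the fold threshold. An unadjusted *P* under 0.05 was reached by 7 of the 10, against 16.5% of all tested genes, the share to set beside each such count below. The log2 fold change was positive for 8 of the 10 markers, with a median of 0.25 beside −0.0028 over all tested genes. All *Irf1-/-* libraries lay above all WT libraries for 5 markers and below for 1, against 10.6% and 9.27% of all tested genes. One library stood apart. The mature neutrophil genes *S100a8*, *S100a9*, *Ltf*, *Camp*, and *Ngp* were at 1033, 1246, 2032, 666, and 2535 in WT replicate 4, and none exceeded 131 in any other library. The summed level of the 8 granulocyte markers, led by *Prtn3*, was 8136, 8341, and 10810 in *Irf1-/-* libraries and 6657, 5203, and 14270 in WT libraries. Of these 8 genes 0 were called by limma, edgeR, or DESeq2, and 1 had an unadjusted *P* under 0.05. This was *Prtn3*, at 7608, 7801, and 9879 in *Irf1-/-* libraries and at 6255, 4841, and 6445 in WT libraries, without overlap (log2 fold change 0.53, adjusted *P* = 0.0334, limma), which missed only the fold threshold. *Elane* (0.63) and *Mpo* (0.30) were also positive and overlapped. Values without this library are given below for the called members and wherever leaving it out turned a direction.

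A gene was called when its adjusted *P* (Benjamini-Hochberg, over all tested genes) was under 0.05 and its log2 fold change, *Irf1-/-* over WT on log2(normalized count + 1), exceeded 0.58 in either direction. *Fosl2* was the 1 member called higher, against 0.96% of all tested genes, and *Batf2* the 1 member called lower, against 0.954%. The other 8 were not called. *Fosl2* and *Junb* had all 3 *Irf1-/-* libraries above all 3 WT libraries (2 of 10 members, against 10.6% of tested genes). *Batf2* had all 3 below (1 of 10, against 9.27%), and the 7 remaining members overlapped between genotypes. These counts without overlap were close to the shares over all tested genes, and each call is a count of 1 gene. The log2 fold change was positive for 8 members and negative for 2, and its median was 0.13 beside −0.0028 over all tested genes. Without WT replicate 4, *Fos*, *Fosb*, and *Jun* turned negative, which made 5 members positive and 5 negative, with a median of 0.028. Over each library left out in turn the median lay between 0.028 and 0.23, over 9 members without *Irf1-/-* replicate 3 or WT replicate 3, where *Atf3* fell under the filter on low values.

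**Figure D1:**
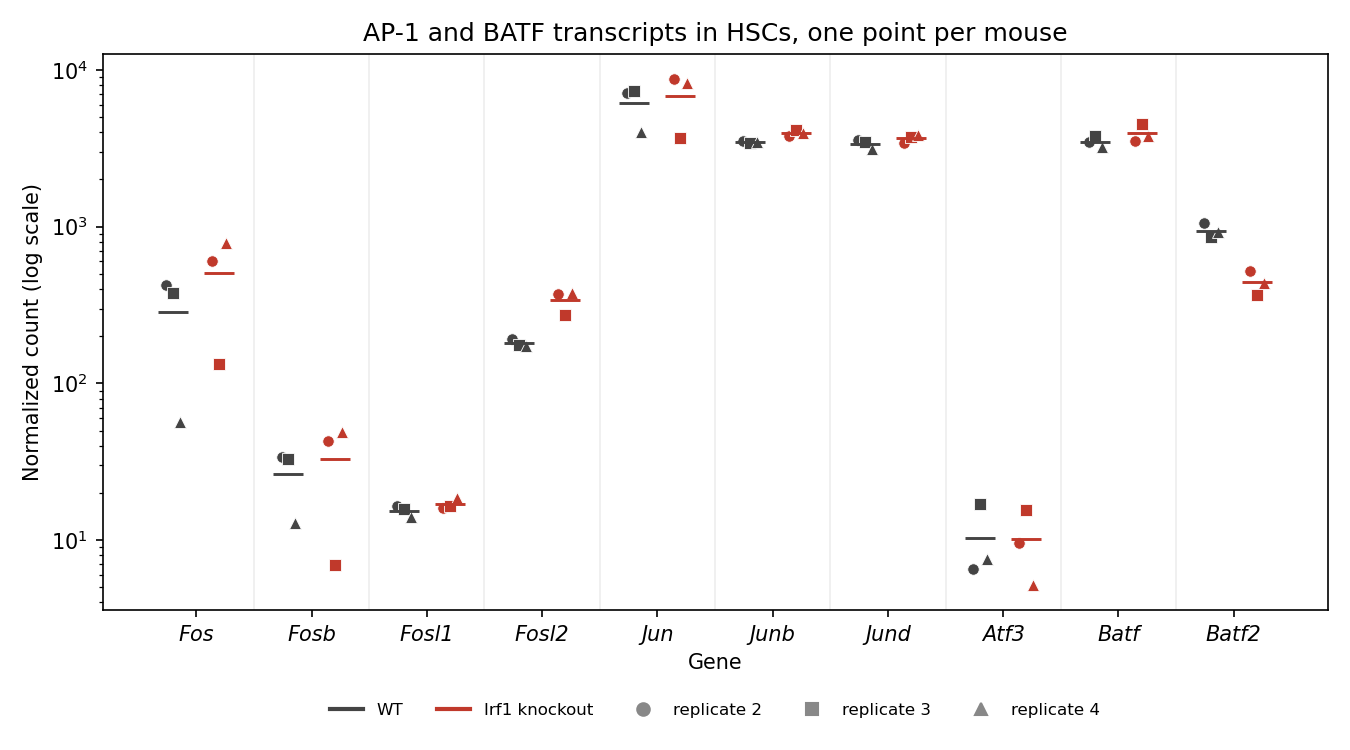
Normalized counts (log scale) of the 10 AP-1 and BATF genes, with 1 point per mouse, the replicate number as the symbol, and the genotype mean as a bar. *Batf2* lay between 366 and 519 in *Irf1-/-* libraries and between 859 and 1049 in WT libraries, whereas *Fos* ranged from 57.0 to 782 with both genotypes spread over most of that range.

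Among the FOS proteins, *Fos* encodes the founding member. It was at 604, 133, and 782 normalized counts in *Irf1-/-* libraries and at 422, 379, and 57.0 in WT libraries. The genotypes overlapped, with *Irf1-/-* replicate 3 and WT replicate 4 far below the others of their genotype. The highest library exceeded the lowest 13.7-fold. A log2 fold change of 0.92 resulted, which had a 95% interval from −0.54 to 2.39 (adjusted *P* = 0.581, limma), and it was −0.0064 without WT replicate 4 and 1.71 without *Irf1-/-* replicate 3. The SD of *Fos* within a genotype was 1.498 on the log2 scale, at percentile 99.5 of the 2152 tested genes within 2-fold of its mean, whose median SD was 0.223. *Fosb* and *Jun* were also high on this measure, as given below. *Batf* and *Batf2* lay at percentiles 74.6 and 64.5. The percentiles of *Atf3*, *Jund*, *Fosl2*, *Junb*, and *Fosl1* were 31.6, 29.3, 25.5, 3.79, and 0.169.

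*Fosb* encodes a close relative of FOS that is induced by similar signals. It was at 42.6, 6.91, and 48.8 normalized counts in *Irf1-/-* libraries and at 33.7, 32.7, and 12.9 in WT libraries. The same 2 libraries were the lowest of their genotypes. The log2 fold change was 0.026 (SE 0.72, adjusted *P* = 0.992, limma), which turned to −0.35 without *Irf1-/-* replicate 2, −0.45 without *Irf1-/-* replicate 4, −0.41 without WT replicate 4, and −0.0046 with median centring, and was 0.88 without *Irf1-/-* replicate 3. *Fosb* rested on between 8 and 47 reads per library. Its SD within a genotype was 1.17 on the log2 scale, at percentile 88.5 of the 3366 tested genes within 2-fold of its mean, whose median SD was 0.681. The parts of depth and of other variation between mice in this spread were not tested.

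*Fosl1* encodes FRA-1, which lacks the strong activation domain of FOS. It was at 16.0, 16.4, and 18.7 in *Irf1-/-* libraries and at 16.5, 15.8, and 14.0 in WT libraries. These values came from between 13 and 20 reads and overlapped (log2 fold change 0.14, 95% interval −1.15 to 1.42). Leaving out *Irf1-/-* replicate 4 gave 0.071, and leaving out WT replicate 4 gave 0.072.

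*Fosl2* encodes FRA-2, which likewise lacks the FOS activation domain. It was at 369.9, 275, and 376 normalized counts in *Irf1-/-* libraries and at 192, 176, and 174 in WT libraries. Every *Irf1-/-* library exceeded every WT library, and the WT libraries lay close together. The means were 340.2 ± 56.7 and 181 ± 9.67 (SD, n = 3), a ratio of 1.88. The log2 fold change was 0.90 (SE 0.21, 95% interval 0.44 to 1.36, adjusted *P* = 0.0368, limma), and the call was also made by edgeR (adjusted *P* = 0.0414) and DESeq2 (adjusted *P* = 0.00110) on the recovered reads. *Fosl2* no longer passed when *Irf1-/-* replicate 2 was left out (adjusted *P* = 0.148), nor without *Irf1-/-* replicate 4 (0.190), WT replicate 2 (0.0751), or WT replicate 3 (0.115), nor with limma without the intensity trend (0.142), while the log2 fold change stayed between 0.82 and 1.04 over all alternatives. Without WT replicate 4, the library with neutrophil transcripts, it was 0.87 (adjusted *P* = 0.0462, limma). *Fosl2* was therefore the one FOS gene with a called difference, and the call depended on single libraries.

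*Jun*, the founding JUN gene, was at 8720.2, 3679, and 8196 normalized counts in *Irf1-/-* libraries and at 7100.1, 7356, and 4033 in WT libraries. It showed the same pair of low libraries as *Fos* and *Fosb*. Its SD within a genotype was 0.60 on the log2 scale, at percentile 99.9 of the 3736 tested genes of similar mean, whose median was 0.113. It rested on between 3749 and 8628 reads per library. The log2 fold change was 0.11 (SE 0.28, adjusted *P* = 0.913, limma), and single libraries turned its direction (−0.17 without WT replicate 4, −0.12 without *Irf1-/-* replicate 2, and −0.071 without *Irf1-/-* replicate 4). It was 0.51 without *Irf1-/-* replicate 3.

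*Junb* encodes a JUN protein with weaker activation of many targets than JUN. It was at 3808, 4167, and 3943 normalized counts in *Irf1-/-* libraries and at 3515, 3396, and 3471 in WT libraries. All *Irf1-/-* values lay above all WT values, by a small margin. Its log2 fold change of 0.20 (SE 0.087) did not pass the adjustment (adjusted *P* = 0.272, limma). *Jund*, the JUN gene that is usually expressed most constantly, was at 3428, 3708, and 3861 in *Irf1-/-* libraries and at 3547, 3469, and 3117 in WT libraries. The genotypes overlapped (log2 fold change 0.12, SE 0.095, adjusted *P* = 0.616, limma), and the log2 fold change was 0.062 without WT replicate 4. Neither *Junb* nor *Jund* had the low values of *Jun* in *Irf1-/-* replicate 3, where *Junb* was at its highest.

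Lowest values in both *Irf1-/-* replicate 3 and WT replicate 4 were thus found for 4 of 10 members (*Fos*, *Fosb*, *Fosl2*, and *Jun*), against 7.79% of all tested genes. For *Fosl2* the lowest WT value was nearly level with the next (174 and 176). This pair of libraries was singled out after the values were seen, and the pattern was given no test. It runs across the genotypes, since each genotype contributes 1 of the low libraries. *Irf1-/-* replicate 3 and WT replicate 4 differed in depth (57281017 and 43267486 reads) and in neutrophil transcripts, which were high in WT replicate 4 alone. The part of either in the pattern was not tested.

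*Atf3* was barely counted, at 9.59, 15.6, and 5.19 normalized counts in *Irf1-/-* libraries and at 6.58, 16.9, and 7.53 in WT libraries. The values overlapped and came from between 5 and 18 reads. Its log2 fold change was −0.031 with a 95% interval from −1.73 to 1.66 and was 0.33 without *Irf1-/-* replicate 4.

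*Batf* encodes a small protein without an activation domain of its own. It was at 3508, 4508, and 3815 normalized counts in *Irf1-/-* libraries and at 3454, 3762, and 3209 in WT libraries. The genotypes overlapped, and *Irf1-/-* replicate 3 was the highest library rather than the lowest. The difference was 0.18 on the log2 scale (SE 0.11, adjusted *P* = 0.472, limma), and 0.077 without *Irf1-/-* replicate 3.

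*Batf2* encodes a BATF relative that is induced by interferon in myeloid cells. It was at 519, 366, and 440.2 normalized counts in *Irf1-/-* libraries and at 1049, 859, and 927 in WT libraries. No *Irf1-/-* library reached the lowest WT library. The means were 442 ± 76.4 and 945 ± 96.5 (SD, n = 3), so that *Irf1-/-* HSCs held 46.8% of the WT level, a 2.14-fold difference. In bulk RNA, fewer cells that express a gene and less RNA per cell cannot be told apart. The log2 fold change was −1.10 (SE 0.16, 95% interval −1.45 to −0.76, adjusted *P* = 0.00193, limma). It was called by edgeR (adjusted *P* = 0.00197) and DESeq2 (adjusted *P* = 6.07e-09), and without each library in turn, WT replicate 4 included (log2 fold change −1.12). The call was lost only with limma without the intensity trend (adjusted *P* = 0.103). By exact permutation (two-sided) *P* was 0.1, and 3 against 3 libraries can give no lower one.

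**Figure D2:**
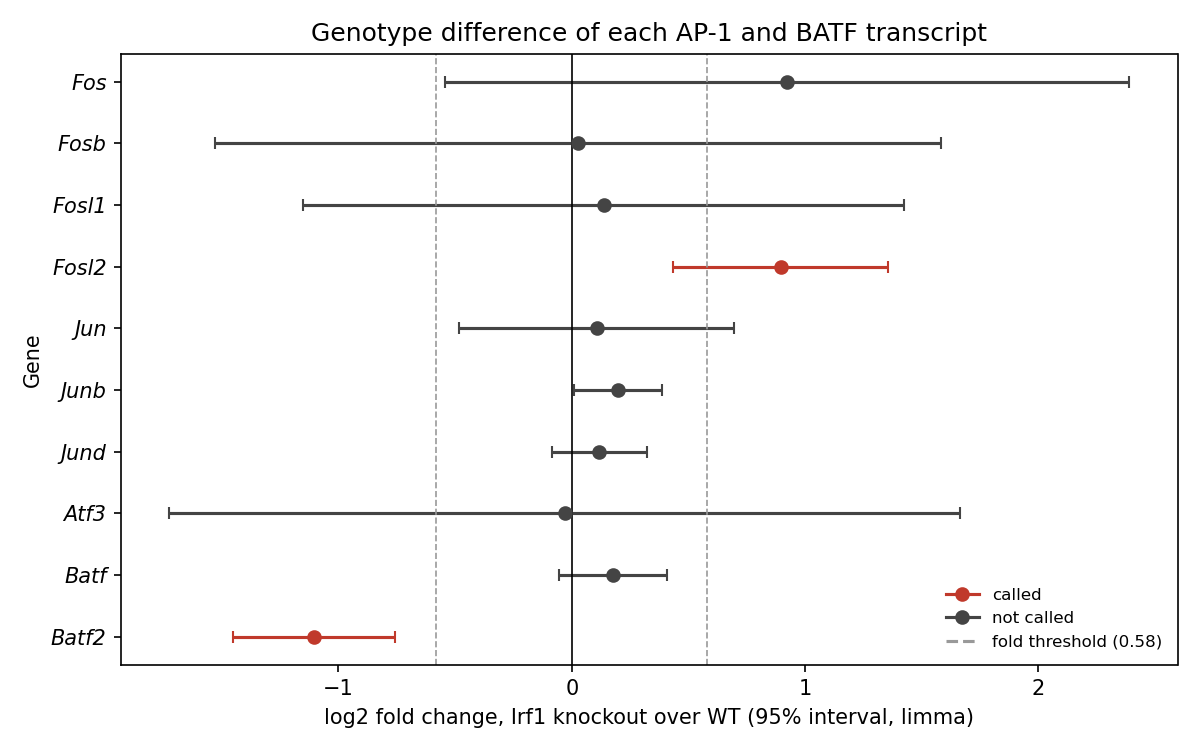
Log2 fold change (*Irf1-/-* over WT) of each gene with its 95% interval from limma, called genes in red, and dashed lines at the fold threshold of 0.58. The interval of *Batf2* lay wholly below the lower line, that of *Fosl2* (0.44 to 1.36) lay above 0 and crossed the upper line, and the intervals of *Fos*, *Fosb*, *Fosl1*, and *Atf3* were wide.

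Levels of different genes were compared as normalized counts per kb of the longest protein-coding transcript. In WT HSCs *Batf* was the most abundant member (3639 ± 290.0 per kb, SD, n = 3). *Jun* (1933 ± 579.8) and *Junb* (1915 ± 33.3) followed and did not differ beyond their spread. *Jund* (1174 ± 79.6), *Batf2* (679 ± 69.4), *Fos* (136 ± 94.6), and *Fosl2* (30.8 ± 1.65) came next. *Fosl1* (9.03 ± 0.748), *Fosb* (7.05 ± 3.13), and *Atf3* (5.21 ± 2.88) were the lowest, and the SD range of *Fosb* overlapped those of both others. In *Irf1-/-* HSCs the order was the same except that *Junb* (2198 ± 100.4) and *Jun* (2153 ± 869) changed places within their spread. There *Batf2* (318 ± 54.9) exceeded *Fos* (240.2 ± 159) by less than the SD of *Fos*.

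FOS-family transcripts were a small share of the summed FOS and JUN level per kb. The share was 5.79, 2.50, and 7.00% in *Irf1-/-* libraries and 4.45, 4.05, and 1.58% in WT libraries. The genotypes overlapped, and the lowest share of each was in the low-*Fos* library. *Fosl2* alone made up 0.987, 0.964, and 0.980% of that sum in *Irf1-/-* libraries and 0.579, 0.534, and 0.686% in WT libraries, without overlap. Per kb, *Fosl2* exceeded *Fos* only in WT replicate 4 (ratio 1.10) and was between 0.164 and 0.743 of it elsewhere. The ratio of *Batf* to *Batf2* per kb was 9.84, 17.9, and 12.6 in *Irf1-/-* libraries and 4.80, 6.38, and 5.04 in WT libraries. Every *Irf1-/-* ratio exceeded every WT ratio.

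The genes whose log2 profile over the 6 libraries, centered on its mean, was closest to that of *Fosl2* were *Arap3* (root-mean-square difference 0.072), *Il17rb* (0.084), and *Tdrd9* (0.088). *Arap3* was called (log2 fold change 0.90, adjusted *P* = 0.00180, limma), and *Il17rb* and *Tdrd9* were not. The closest to *Batf2* were *Gm1966* (0.094), *Mlana* (0.12), and *AI504432* (0.13), of which *Gm1966* was called (log2 fold change −1.15, adjusted *P* = 0.000936, limma). This likeness includes the genotype difference, so a similar log2 fold change follows from how these genes were chosen.

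Few relatives and regulators of the family were called. Of 24 other basic leucine zipper genes 0 were called by limma, edgeR, or DESeq2, and 4 had an unadjusted *P* under 0.05 in limma, near the share over all tested genes (16.5%). The most abundant was the megakaryocyte and erythroid factor *Nfe2* (between 42198 and 50814), and the median log2 fold change of the list was 0.014. Among 25 genes of the MAP kinase cascade, which phosphorylates FOS and JUN proteins and the factors that induce them, 1 was called higher (against 0.96% of all tested genes) and 0 lower. This was *Mapk13*, a p38 kinase, at 262, 238, and 228 in *Irf1-/-* libraries and 81.5, 83.4, and 93.6 in WT libraries (log2 fold change 1.48, SE 0.25, adjusted *P* = 0.00540, limma). *Mapk14*, a much more abundant p38 gene, was between 20116 and 24969.8 and overlapped. Of 9 tested regulators of *Fos* transcription, led in abundance by *Mrtfa*, 0 were called by limma, edgeR, or DESeq2, and 1 had an unadjusted *P* under 0.05. This was *Elk3*, a cofactor of SRF at serum response elements, whose *Irf1-/-* values exceeded all WT values (log2 fold change 0.28, adjusted *P* = 0.110, limma). Of 10 genes for turnover and modification of AP-1 proteins, led by *Itch*, 0 were called by any of the 3 tools, and 2 had an unadjusted *P* under 0.05. The median log2 fold change of that list was −0.13, and 4 of its genes had all *Irf1-/-* libraries below all WT libraries, against 9.27% of all tested genes.

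Of 24 textbook AP-1 targets 19 were tested, and 0 were called by limma, edgeR, or DESeq2 or had an unadjusted *P* under 0.05. The median over the list was −0.055 on the log2 scale, and *Vim* was the most abundant (between 5574 and 8747). *Irf4* and *Irf8*, which encode partners of BATF proteins, overlapped between genotypes. The interferon receptor genes *Ifngr1*, *Ifngr2*, and *Ifnar1* had all *Irf1-/-* libraries above all WT libraries without a call, whereas *Ifnar2* overlapped. These were 3 of the 8 genes listed as partners and inducers of BATF proteins, against 10.6% of all tested genes.

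Other immediate-early genes were read beside *Fos* and *Jun*. Of 24 tested, 2 were called higher and 1 lower, against 0.96% and 0.954% of all tested genes, and 6 had an unadjusted *P* under 0.05. *Ier3* was higher and missed only the fold threshold (log2 fold change 0.50, adjusted *P* = 0.0285, limma). *Egr1*, a zinc finger factor induced by the same signals as *Fos*, was at 6247, 5935, and 5471 in *Irf1-/-* libraries and at 2744, 3234, and 2778 in WT libraries (log2 fold change 1.01, SE 0.098, adjusted *P* = 3.89e-05, limma). *Egr1* was not low in *Irf1-/-* replicate 3 and was no lower in WT replicate 4 than in WT replicate 2, unlike *Fos*. *Socs3*, a feedback inhibitor of cytokine receptors, was called higher (1562, 1724, and 1541 against 694, 568, and 892). *Btg2*, an antiproliferative gene, was called lower (1341, 954, and 923 against 1758, 1840.3, and 1359), a call that was lost in 6 of 16 alternatives, namely without the intensity trend, with quantile normalization, and without *Irf1-/-* replicate 3 (adjusted *P* = 0.121), *Irf1-/-* replicate 4 (0.192), WT replicate 2 (0.143), or WT replicate 3 (0.181). *Myc* was the most abundant gene of the list and overlapped. *Dusp1*, *Zfp36*, and *Ccn1* were lowest in *Irf1-/-* replicate 3 and WT replicate 4 (3 of 24, against 7.79% of all tested genes), whereas *Ier2* (7701, 8569, and 8305 against 7322, 8106, and 7647) and *Nr4a1* (339, 561, and 433 against 541, 693, and 411) were not. Of 12 heat shock genes, which respond to protein damage, 0 were called by any of the 3 tools, 3 had an unadjusted *P* under 0.05, and 0 were lowest in that pair of libraries. Their summed level, led by *Hsp90ab1*, was 190800, 245300, and 202800 in *Irf1-/-* libraries and 255200, 290000, and 196100 in WT libraries.

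Markers of cell types other than HSCs were set beside the called members. Several were abundant in every library, such as *Itga2b* (between 18422 and 45662) and *Lyz2* (between 23206 and 31462). Whether their transcripts came from HSCs or from other cells was not tested. The B cell list (*Cd79b* the most abundant), the T and NK cell list (*Nkg7*), the monocyte list (*Lyz2*), the dendritic cell list (*Cd209a*), and the endothelial and stromal list (*Pecam1*) had 0 called genes in limma, edgeR, or DESeq2, and the summed level of each overlapped between genotypes. At an unadjusted *P* under 0.05 there was 1 gene each in the T and NK cell and the endothelial and stromal lists and 0 in the other three. Among 5 megakaryocyte markers, *Pf4* (log2 fold change −1.11) and *Gp1ba* (−0.69) were called lower, and their summed level, led by *Itga2b*, was 40100, 24840, and 35730 in *Irf1-/-* libraries and 46830, 60080, and 44770 in WT libraries. Among 6 erythroid markers, *Klf1* (−0.72) and *Car1* (−3.51) were called lower, and the summed level was 1761, 663, and 1046 against 3102, 2380, and 3838. *Car1* was the most abundant only by its mean over all libraries. *Klf1* exceeded it in every *Irf1-/-* library (901, 569, and 924 against 836, 40.6, and 89.3) and in WT replicate 3 (1290 against 1062). *Car1* was not called by edgeR (log2 fold change −2.48, adjusted *P* = 0.0875) or DESeq2 (−2.47, adjusted *P* = 0.198), whereas both tools called *Pf4*, *Gp1ba*, and *Klf1*. The calls of *Gp1ba*, *Klf1*, and *Car1* were lost in 4, 5, and 5 of 16 alternatives, and that of *Pf4* in 1. Limma without the intensity trend called none of these 4. *Gp1ba* did not pass without *Irf1-/-* replicate 2 (adjusted *P* = 0.0643), *Irf1-/-* replicate 3 (0.0585), or WT replicate 3 (0.0770). *Klf1* did not pass without *Irf1-/-* replicate 2 (0.0583), *Irf1-/-* replicate 3 (0.0700), WT replicate 2 (0.117), or WT replicate 3 (0.109), and *Car1* without *Irf1-/-* replicate 3 (0.0603) or *Irf1-/-* replicate 4 (0.0681). The hemoglobin genes *Hba-a1*, *Hbb-bs*, and *Hbb-bt* were listed at 0 in all 6 libraries. The summed megakaryocyte and erythroid levels were lower in the same genotype as *Batf2*, and their part in its difference was not tested. Most HSC markers were higher in the same genotype as *Fosl2*, and their part in its difference was not tested either.

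A promoter search was planned for all members, called or not. The 250 bases upstream of the start were taken from a RefSeq promoter table (GRCm38.p6), which matched 8 of the 10 members, all but *Fosl1* and *Batf2*. Both strands were searched for the AP-1 motif TGANTCA (in 6.75% of 32851 promoters), the CRE motif TGACGTCA (1.55%), the IRF motif GAAANNGAA (7.13%), the GAS motif TTCNNNGAA (7.02%), and the CArG box (1.47%). The IRF motif was the only one found. *Fosl2* held it at 2 places, 250 to 242 and 220 to 212 bases upstream of the start. *Jund*, which was not called, held it at 1 place, 10 to 2 bases upstream. No match overlapped another. *Fos*, *Fosb*, *Jun*, *Junb*, *Atf3*, and *Batf* held none of the 5 motifs in this window. A match is a run of letters and not evidence of binding. Both sequences are shown, as a called and an uncalled member that hold the motif, on the plus strand at chr5:32136222-32136471 and chr8:70697489-70697738, with the matches in capitals.
Fosl2: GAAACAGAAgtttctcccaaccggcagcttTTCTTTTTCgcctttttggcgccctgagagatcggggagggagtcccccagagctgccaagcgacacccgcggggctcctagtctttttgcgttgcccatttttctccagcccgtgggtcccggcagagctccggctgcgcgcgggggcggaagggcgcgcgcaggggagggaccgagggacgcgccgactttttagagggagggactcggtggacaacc
Jund: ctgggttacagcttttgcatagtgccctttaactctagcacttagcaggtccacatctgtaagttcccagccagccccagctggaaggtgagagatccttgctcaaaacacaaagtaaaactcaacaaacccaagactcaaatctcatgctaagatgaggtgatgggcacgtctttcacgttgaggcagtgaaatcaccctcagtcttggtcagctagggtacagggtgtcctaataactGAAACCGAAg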

How the data were processed

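HSC libraries were assigned to genotype by their labels, and the replicate numbers 2, 3, and 4 are those of the label that names the columns. The authors used Trim Galore! for trimming, HISAT2 for alignment (mm39 in the submitters' processing notes), and Htseq-count for the reads of each gene. The values the authors deposited are a signal made from counts, each gene's count divided by 1 DESeq2 size factor per library. Tool versions, annotation, and strand setting are not given in the sources used here, so reads of overlapping or antisense genes could not be separated. Low-input cDNA was amplified without molecular identifiers, so PCR copies were counted as reads. All columns were mapped to samples (0 unmapped). All values (100%, tolerance 0.01 reads) were whole multiples of 1 step per library, which gave back the reads.

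The deposited values are normalized rather than raw, and so limma 3.58.1 (R 4.3.3, intensity trend) on log2(normalized count + 1) was the primary test, over genes with a mean of at least 10, with Benjamini-Hochberg adjustment. The pseudocount shrinks each log2 ratio of low values, though not every difference of their means (*Fosb* 0.016, 0.026, and 0.075 at pseudocounts 0.5, 1, and 5). edgeR 4.0.16 (quasi-likelihood, TMM) and DESeq2 1.42.0 (no prior), run on the recovered reads, were alternatives, beside pseudocounts, filters, scalings, the replicate block, and each library left out. On all genes limma called 167 higher and 166 lower, edgeR 162 and 161, and DESeq2 295 and 209. The scripts were tested on simulated data. Libraries of a genotype differed by more than sampling noise (chi-square per gene at least 16), so each was counted once.

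Named genes are all members, *Irf1*, the called and the most abundant gene of each fixed list, and the 3 genes closest to the called member of each direction. Results of some list genes are not reported here. Others were chosen after their values were seen. The members and lists were chosen with earlier results of these data known. Transcript lengths came from GENCODE vM1, and promoters from a RefSeq table on GRCm38.p6, another build than that of the files. Figures were drawn with matplotlib 3.10.9.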

Additional observations from a re-analysis of the deposited data

How the results depend on the processing

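*Batf2* kept its direction in 16 of 16 alternatives and its call in 15, with adjusted *P* between 6.07e-09 and 0.103. The call was lost with limma without the trend (log2 fold change −1.10), and the log2 fold change lay between −1.23 and −0.98 when single libraries were left out. *Fosl2* kept its direction in 16 of 16 and its call in 11, with adjusted *P* between 0.00110 and 0.190. The losses came with limma without the trend (0.90) and when 4 of the 6 libraries were left out in turn (0.82 to 1.04 over all 6). Accordingly the count of members called was 0 in each direction without the trend, and 0 to 1 higher when libraries were left out. The cause was not tested.

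Directions turned for *Fos* (−0.0064 to 1.71 without single libraries), *Jun* (−0.17 to 0.51, with −0.12 without *Irf1-/-* replicate 2 and −0.071 without *Irf1-/-* replicate 4), *Fosb* (−0.45 to 0.88, with −0.35 and −0.41 without *Irf1-/-* replicate 2 and WT replicate 4, and −0.0046 with median centring), and *Atf3* (−0.27 to 0.33 over the 4 libraries whose removal left it tested), none of them called in any alternative that tested it. A minimum mean of 50 left out *Atf3*, *Fosb*, and *Fosl1*, and *Atf3* was also left out by the edgeR filter and without *Irf1-/-* replicate 3 or WT replicate 3.

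Of the other called genes named, *Fgd5* (adjusted *P* = 0.0511), *Egr1* (0.0511), *Socs3* (0.120), *Arap3* (0.0705), *Gm1966* (0.125), and *Pf4* (0.238) lost the call with limma without the trend and in none of the other 15 alternatives, and *Mapk13* kept it in all 16 (0.0171 without the trend). *Gp1ba*, *Klf1*, *Car1*, and *Btg2* lost it without the trend and in 3 to 5 others.

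Over all genes, 7 higher and 33 lower calls were made without the trend, 301 and 260 without the fold threshold, and 295 higher with DESeq2. Without single libraries, 83 to 304 were called higher and 105 to 265 lower. With the replicate block, 219 were called higher and 196 lower, *Fosl2* (adjusted *P* = 0.0341, limma) and *Batf2* (adjusted *P* = 0.00173, limma) kept their calls, and the median log2 fold change of the members was 0.13. Same-numbered libraries correlated at −0.094, 0.246, and 0.147 across genes in their deviations from the genotype means. *Irf1-/-* replicates 3 and 4 correlated best with the WT library of the same number, and *Irf1-/-* replicate 2 with WT replicate 4 (0.251). Deviations within a genotype cancel out, so these correlations depend on one another. The numbers were not taken as pairs, and whether same-numbered libraries share a batch was not tested.

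*Atf3*, *Fosb*, and *Fosl1* had the fewest reads of the members, with medians of 8.5, 34.5, and 16.5 reads per library.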
